A study of Mus musculus with 4 samples.

Results

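Hox genes encode homeodomain transcription factors that give body regions their identity along the head-to-tail axis. The genes probed here lie in the Hoxa, Hoxb, Hoxc and Hoxd clusters, and within each cluster the order of the genes follows the order of their domains in the embryo, low paralog numbers in front and high numbers behind. Neural crest cells that fill the first pharyngeal arch, from which the molar mesenchyme derives, are known for lacking Hox expression, whereas the second arch depends on Hoxa2. The members were all probe sets of the murine U74v2A array whose annotation gives a single symbol that starts with Hoxa, Hoxb, Hoxc or Hoxd and a digit. There were 40 such probe sets of 12488 on the array, 12422 of them non-control, and they stand for 32 symbols, 31 of them among the 39 protein-coding genes of the 4 clusters in the RefSeq gene table and the other Hoxa11os, a transcript antisense to Hoxa11. Another 3 probe sets list a pair of Hox genes each and were kept out of the counts.

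The samples were mandibular molar tooth regions of NMRI mouse embryos taken at embryonic day 14 and kept for 24 h in organ culture. The 2 control samples had DMSO in the medium at 0.65%, and the 2 exposed samples had TCDD, a dioxin that activates the aryl hydrocarbon receptor, at 1 µM from a DMSO stock. Each sample pooled about 60 explants from 3 experiments and went onto 1 array, so p-values measure the spread between such pools. The explants came from unmanipulated embryos with no transgene and were dissected as regions, so they hold epithelium, mesenchyme and whatever vessels, blood, nerve and muscle came along. The RNA input was 11 µg for DMSO replicate 1 and TCDD replicate 1, 7 µg for DMSO replicate 2 and 8 µg for TCDD replicate 2, and only DMSO replicate 2 has ascorbic acid listed in its medium.

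Signals are MAS5 intensities that the authors scaled to a target of 100 on each array. Detection calls were not analysed here, so a low signal is called dim, not absent. A mean over the 4 arrays of at least 50 was used as a mark for levels, a value set for this description and not a limit of detection. Probe sets differ in affinity, so signals of different genes are set side by side only as a description. In tissue pools, fewer cells of a type and less RNA per cell cannot be told apart.

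Defining genes of the dissected tissue were mostly bright. In a list of the dental mesenchyme 8 of 9 measured genes had a mean of at least 50, among them Msx1 at 634 and Barx1 at 246.5, and the remaining gene, Pax9, stood at 48.4. In a list of the dental and oral epithelium 6 of 8 had a mean of at least 50, with Shh at 122 and Trp63 at 252, while the keratin genes Krt5 and Krt14 were dim at 9.18 and 8.32. DMSO replicate 1 stood apart at low signals. Of all 6639 non-control probe sets with a mean under 50, 56.7% had their highest signal on that array, against 12.9% to 14.9% on each of the other arrays, and its median signal over all probe sets was 47.1, against 40 to 40.8 elsewhere. Several counts, medians and differences of the Hox probe sets that this array moved are given without it as well. Counts of members that were dim on every array, and counts and medians of the comparison lists, are given only with it.

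Promoter sequences of 3 members are shown first, a choice made after the values were seen: Hoxa2, whose expression separates the second arch from the first, Hoxb1, a gene of the hindbrain that regulates itself, and Hoxb8, the brightest member with an entry in the RefSeq promoter table (build GRCm38.p6). Each runs 5′ to 3′ from 250 bases before to 50 bases after the annotated start. Capitals mark matches, on either strand, to GCGTG, the core of the site bound by the aryl hydrocarbon receptor, or to TGATNNAT, the core of the joint site of Hox and Pbx proteins. The windows are chr6:52164782-52165081 on the minus strand for Hoxa2, chr11:96365508-96365807 on the plus strand for Hoxb1 and chr11:96281655-96281954 on the plus strand for Hoxb8.
Hoxa2: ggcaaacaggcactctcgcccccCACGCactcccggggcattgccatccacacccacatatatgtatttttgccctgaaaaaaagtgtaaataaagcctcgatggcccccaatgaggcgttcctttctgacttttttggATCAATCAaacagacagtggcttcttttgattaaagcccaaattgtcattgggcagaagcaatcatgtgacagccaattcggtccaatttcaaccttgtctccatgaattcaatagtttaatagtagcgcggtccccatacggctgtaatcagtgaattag
Hoxb1: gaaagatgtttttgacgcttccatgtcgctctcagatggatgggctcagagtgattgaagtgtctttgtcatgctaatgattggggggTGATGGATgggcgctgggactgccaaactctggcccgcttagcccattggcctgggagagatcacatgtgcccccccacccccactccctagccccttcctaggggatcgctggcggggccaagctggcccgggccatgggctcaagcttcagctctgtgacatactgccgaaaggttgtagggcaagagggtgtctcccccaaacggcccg
Hoxb8: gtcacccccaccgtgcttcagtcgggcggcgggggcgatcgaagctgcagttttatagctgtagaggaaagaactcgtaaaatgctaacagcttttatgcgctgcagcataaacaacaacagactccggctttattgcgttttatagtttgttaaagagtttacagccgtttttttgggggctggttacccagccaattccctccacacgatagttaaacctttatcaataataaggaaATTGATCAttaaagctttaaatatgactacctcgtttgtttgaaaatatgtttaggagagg

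The Hoxa2 window held 1 match to each core, which did not overlap, and the windows of Hoxb1 and Hoxb8 held 1 match to TGATNNAT and 0 to GCGTG. Promoters were listed for 21 of the 32 symbols, 23 windows in all, since Hoxd11 and Hoxa10 have a pair each. GCGTG was present in 8 of the 23 windows (34.8%), against 32.4% of all 32851 windows in the table. TGATNNAT was present in 4 of 23 (17.4%), against 8.85% of all. The median GC content of the Hox windows was 59.3%, against 52.7% for all, and the median number of CpG dinucleotides was 15, against 7. Hoxa13 had the most CpG dinucleotides, 45, and the window of Hoxa9 and 1 of the Hoxd11 windows had the fewest, 4. A match describes letters in a window and no binding was measured.

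Most Hox probe sets were dim in the cultured molars. The median of their 40 mean signals was 10.6, against 42.6 over all 12422 non-control probe sets, and 2 of 40 (5%) had a mean of at least 50, against 46.6% of all. In 35 of the 40 every array read under 50, and in 27 every array read under 20. Without DMSO replicate 1 the median was 9.32 and the same count of 2 had a mean of at least 50. Where each gene was represented by its brightest probe set, the median over 32 symbols was 11.

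Readings of bacterial and yeast controls and of remote organ genes overlapped those of the dim Hox probe sets on these arrays. The highest Hox mean, 132.65 for Hoxa4, lay above the means of both sets. The 19 control probe sets for bacterial and yeast genes had mean signals from 1.27 to 13.7 with a median of 7.8, and their highest single reading was 20.2. A list of 48 measured genes from organs remote from the tooth, such as the albumin gene Alb at 18.4 and the insulin gene Ins2 at 3.45, had a median of 12.1. In that list 5 of 48 genes had a mean of at least 50 (10.4%), led by the growth hormone gene Gh at 105, so a mean above 50 also occurred among genes of other organs. The list also holds genes of nerve and blood cells, such as Mbp at 84.8 and Elane at 34.9, and the explants can hold such cells. Homeobox genes of the first arch and the tooth had a median of 209, and 13 of 19 reached 50. The brightest were Msx1 at 634, Pitx1 at 586, Six2 at 552 and Prrx2 at 466.

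**Figure D1:**
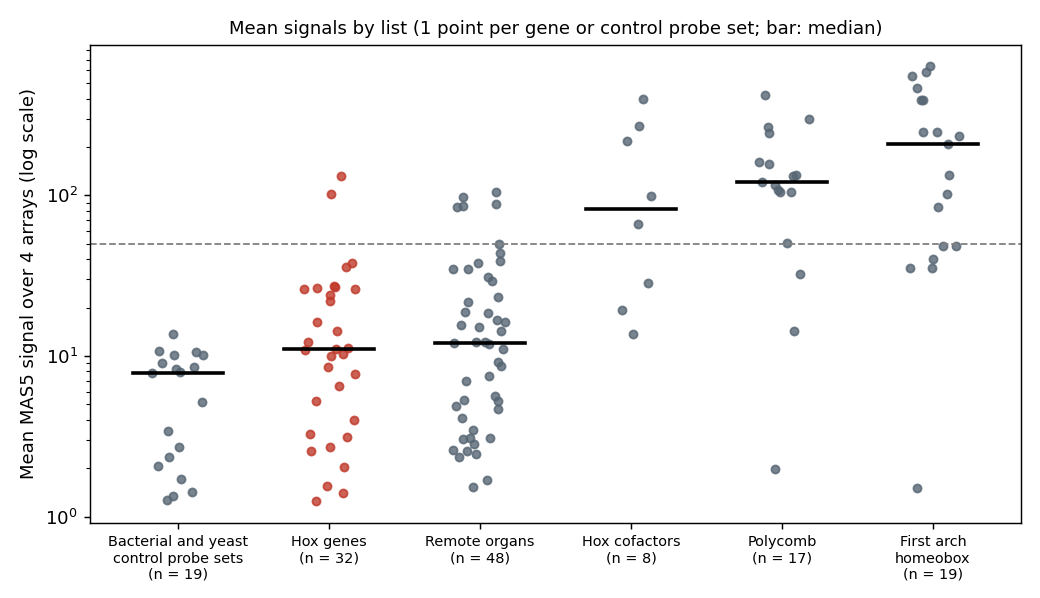
Mean MAS5 signal over the 4 arrays on a log scale for 6 sets, with 1 point per gene (its brightest probe set) or per control probe set, a bar at the median and a dashed line at 50. The 32 Hox symbols have a median of 11, the remote organ genes 12.1 and the bacterial and yeast controls 7.8, while the first arch homeobox genes have a median of 209.

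Hoxa4 and Hoxb8 supplied the members with a mean of at least 50, and for both genes another probe set read near the bottom of the array. Hoxa4, a gene expressed from the posterior hindbrain backwards, has 4 probe sets. The brightest (97747_r_at) read 155.9 and 136.8 in DMSO and 121.6 and 116.3 in TCDD. A companion designed from the same sequence record (97746_f_at) had 0.5 and 3.7 in DMSO and 0.1 and 0.4 in TCDD. The remaining Hoxa4 probe sets had mean signals of 12 (162402_r_at) and 10.9 (97745_at), and neither reached 20 on any array. In all, 1 of the 4 Hoxa4 probe sets was bright on every array and 3 were dim on every array.

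Hoxb8, a gene of the trunk that also acts in blood progenitors, read 158.7 and 84.6 in DMSO and 72.9 and 89.1 in TCDD at 96418_r_at. Its other probe set, from the same record (96417_s_at), had 5.1 and 5.8 in DMSO and 2.1 and 1.5 in TCDD. DMSO replicate 1 was far above the other 3 arrays at the bright probe set and not at the dim one. A probe set that lists both Hoxb8 and its neighbour Hoxb7 (92915_s_at) read 96.6 and 48.3 in DMSO and 55.4 and 34.6 in TCDD, while the probe set for Hoxb7 alone (92914_at) read 33.7 and 25.5 in DMSO and 26.3 and 19 in TCDD.

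Both bright members carry the letter r in their name, which Affymetrix gave to probe sets for which some of the probe selection rules were relaxed. Of the 4 Hox r probe sets 2 had a mean of at least 50, beside 22.8% of all r probe sets. Of the 29 Hox probe sets without such a letter 0 did, beside 49.7% of all probe sets without one. The highest mean among these 29 was 37.7. Hoxa6, another trunk gene, has a like pair from a shared record: its r probe set (102580_r_at) read 43.9 and 11.7 in DMSO and 24.6 and 26.2 in TCDD, and its f probe set (102579_f_at) stayed between 0.4 and 3.5. The letter f marks probe sets that recognise several members of a gene family. Over the whole array 83 sequence records had exactly such a pair of f and r probe sets, and the r member was the brighter in 24 of them (28.9%). The ratio of signal + 16 between r and f was 8.66 for Hoxa4, a ratio that 2 of the 83 pairs reached, Hoxa4 included, and 2.4 for Hoxa6, and it was at least 2 in 9 of the pairs. The part of the probe design in these signals was not tested.

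The other genes with several probe sets did not reach 50 on their mean at any of them. Hoxd8, a gene of the trunk and limb, read 56.2 and 33.1 in DMSO and 30.6 and 22.6 in TCDD at 160460_at, and its second probe set (93221_at) had a mean of 14. Hoxd1 was under 6 on every array at both of its probe sets, with means of 3.12 (98820_g_at) and 2.3 (98819_at). Hoxa11os read 28.3 and 3.2 in DMSO and 17.9 and 15.9 in TCDD at 161670_f_at, and between 2.2 and 4.3 at 93873_s_at, while Hoxa11 itself (104021_at) lay between 4.8 and 16.7. Among probe sets with a single symbol, no Hox gene had more than 1 at a mean of at least 50. The probe set that lists both Hoxb8 and Hoxb7 (92915_s_at) had a mean of 58.7.

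**Figure D2:**
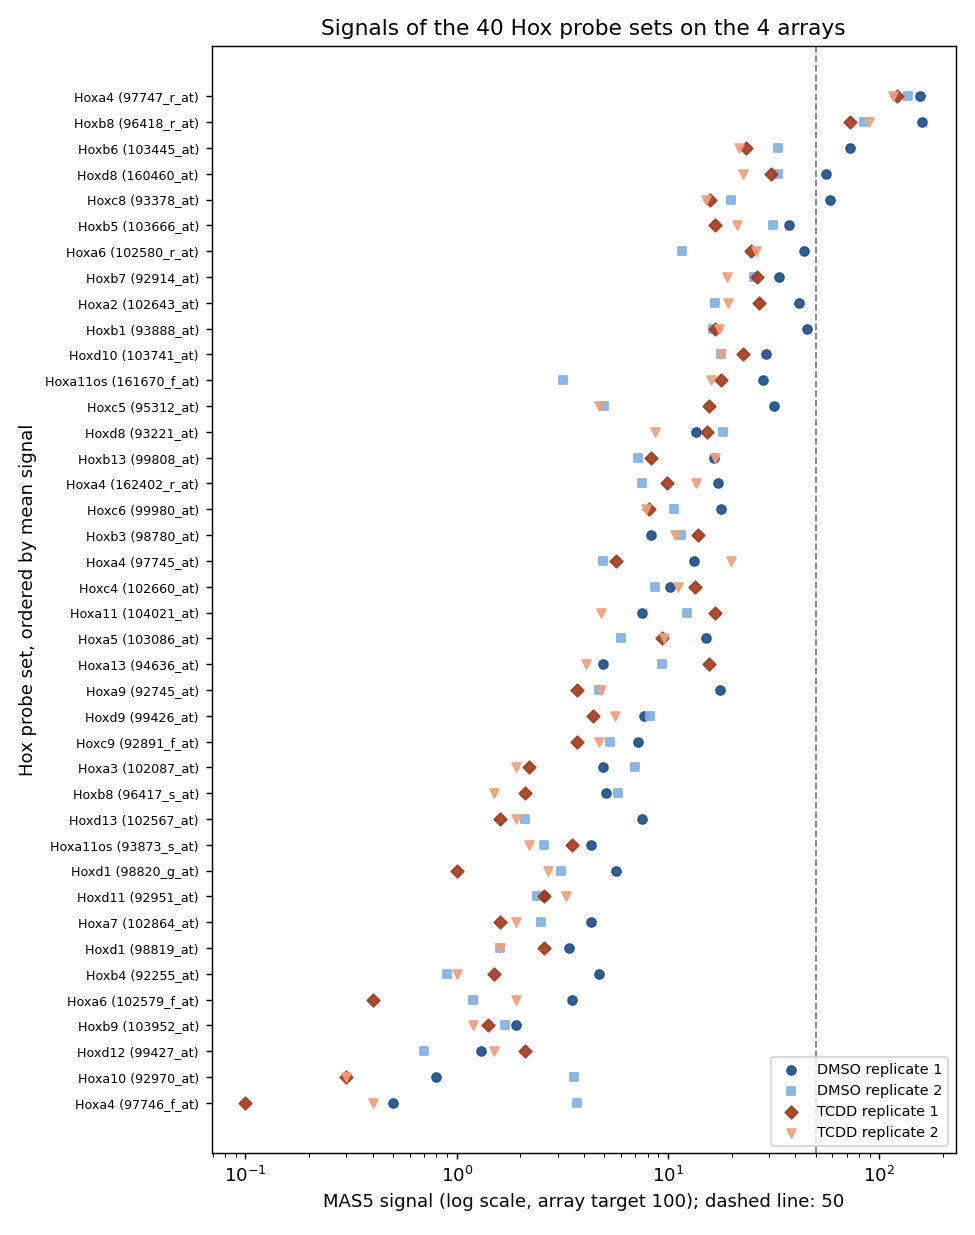
MAS5 signal (log scale) of each of the 40 Hox probe sets on the 4 arrays, 1 symbol and colour per array, ordered by the mean, with a dashed line at 50. Only the upper pair, for Hoxa4 and Hoxb8, lies right of the line on all 4 arrays, and DMSO replicate 1 is the rightmost point in 26 of the 40 rows.

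The genes that set the front boundary of Hox expression were dim. Hoxa2 (102643_at) read 41.7 and 16.6 in DMSO and 27 and 19.2 in TCDD, so that the highest reading came from DMSO replicate 1 and the groups overlapped. Hoxb1 (93888_at) read 45.5 and 16.3 in DMSO and 16.6 and 17.5 in TCDD, 3 arrays close together and DMSO replicate 1 far above them. Hoxd1 was as dim as given above. Hoxa3, a gene of the third arch and its derivatives, read 4.9 and 7 in DMSO and 2.2 and 1.9 in TCDD, and Hoxb3 lay between 8.3 and 13.8. Hoxb4, a gene of the posterior hindbrain and of blood stem cells, lay between 0.9 and 4.7, and Hoxc4 between 8.7 and 13.4.

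Genes of the middle of the clusters, which act in the neck and trunk, held most of the readings above 25. Hoxb6 (103445_at) read 72.6 and 33 in DMSO and 23.5 and 21.7 in TCDD. Hoxb5 (103666_at) read 37.4 and 31.5 in DMSO and 16.6 and 21.3 in TCDD, and Hoxc8 (93378_at) read 58.5 and 19.9 in DMSO and 15.8 and 15.2 in TCDD. In each of the 3 both DMSO arrays lay above both TCDD arrays, with DMSO replicate 1 the highest. Hoxc5 was scattered, with 31.9 and 5 in DMSO and 15.7 and 4.7 in TCDD. Hoxa5 lay between 6 and 15.2, Hoxc6 between 7.9 and 17.8, and Hoxa7 between 1.6 and 4.3.

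Genes of the posterior paralog groups, known from limb, tail and urogenital development, were the dimmest. Of the 14 probe sets for groups 9 to 13 none had a mean of at least 25, and 12 were under 20 on every array. Hoxd10 was the highest, with 29 and 17.8 in DMSO and 22.7 and 17.9 in TCDD. Hoxa9, a gene of blood progenitors as well, read 17.6 and 4.7 in DMSO and 3.7 and 4.8 in TCDD. Hoxa13 lay between 4.1 and 15.7, Hoxb13 between 7.2 and 16.7, Hoxd9 between 4.4 and 8.2 and Hoxc9 between 3.7 and 7.2. Hoxd13, Hoxd12, Hoxd11, Hoxa10 and Hoxb9 were each under 8 on every array.

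Split into groups 1 to 4, 5 to 8 and 9 to 13, a division chosen after the values were seen, the probe sets had median signals of 10.9 (n = 12), 20.2 (n = 14) and 5.85 (n = 14). Of the 9 members with a mean of at least 25, groups 5 to 8 held 7. Without DMSO replicate 1 the medians were 10.2, 15.5 and 4.48, and 4 members kept a mean of at least 25: Hoxa4 at 97747_r_at, Hoxb8 at 96418_r_at, Hoxd8 at 160460_at and Hoxb6. On the chromosome Hoxb5, Hoxb6, Hoxb7 and Hoxb8 follow each other, with brightest means of 26.7, 37.7, 26.1 and 101, and the stretch is flanked by Hoxb9 at 1.55 on one side and by Hoxb4 at 2.03 and Hoxb3 at 11.1 on the other. The Hoxb8 value is that of 96418_r_at, and its other probe set from the same record (96417_s_at) had a mean of 3.625. Without DMSO replicate 1 the brightest means from Hoxb5 to Hoxb8 were 23.1, 26.1, 23.6 and 82.2. By cluster, the median was 18.1 for Hoxb (n = 10), 11.1 for Hoxc (n = 5), 9.29 for Hoxa (n = 16) and 3.28 for Hoxd (n = 9), and without DMSO replicate 1 these were 14.4, 8.9, 9.03 and 2.77. These medians compare probe sets of unlike affinity and were not tested.

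**Figure D3:**
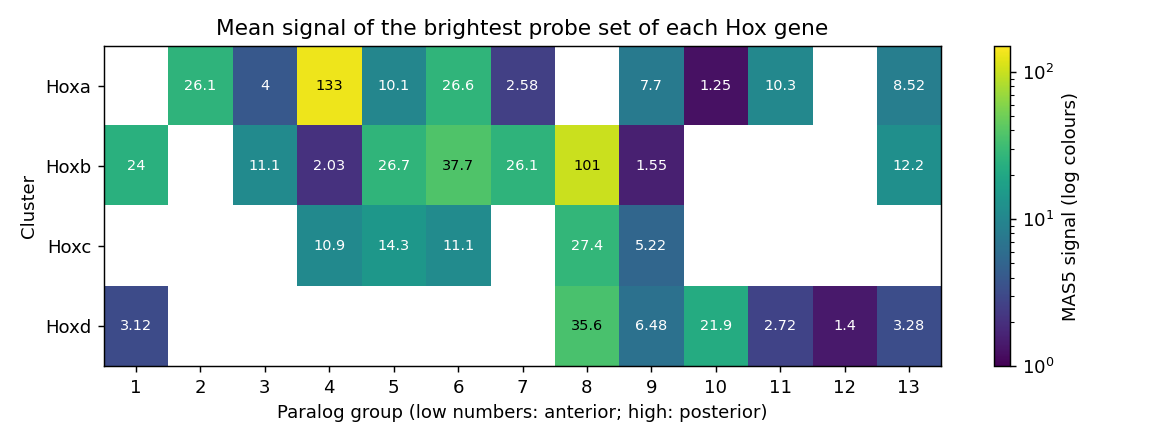
Mean MAS5 signal over 4 arrays of the brightest probe set of each Hox gene, by cluster (rows) and paralog group (columns), with log colours; blank squares are genes without a member probe set or numbers that do not exist in that cluster. Squares from Hoxb5 to Hoxb8 read 26.7, 37.7, 26.1 and 101, and squares from group 9 on read 21.9 at most. The Hoxb8 square shows 96418_r_at, and its other probe set (96417_s_at) had a mean of 3.625.

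The members read highest on DMSO replicate 1, as did other dim probe sets. The summed signal of the 40 Hox probe sets was 1000.8 on DMSO replicate 1 and 588.5, 582.9 and 552.1 on DMSO replicate 2 and TCDD replicates 1 and 2. The summed signal of the 48 remote organ genes was 1509.5 on that array and 979.4, 936.8 and 860.7 on the others, in the same order. For the 19 bacterial and yeast controls the sums were 195.5, 107.1, 97.3 and 74.4. All 3 sums were highest on DMSO replicate 1. Among Hox probe sets with a mean under 50, 24 of 38 (63.2%) had their highest signal on this array, beside 56.7% of all such probe sets.

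**Figure D4:**
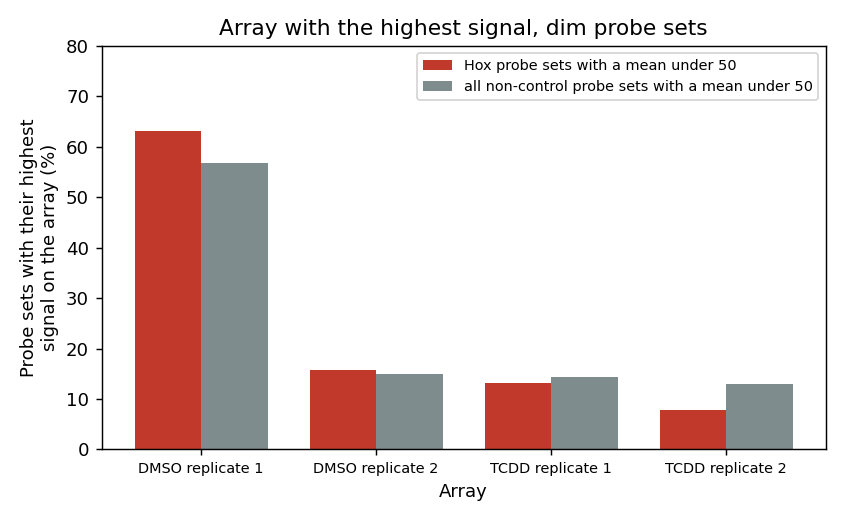
Percentage of probe sets with a mean signal under 50 whose highest signal was on each array, for 38 Hox probe sets and for all 6639 non-control probe sets; bars start at 0. DMSO replicate 1 holds 63.2% of the Hox and 56.7% of all, and no other array holds more than 15.8%.

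For 6 of the 40 the reading on DMSO replicate 1 was at least 1.5 times the next highest array in signal + 16: Hoxc8 (2.08 times), Hoxb1 (1.84), Hoxb6 (1.81), Hoxb8 at 96418_r_at (1.66), Hoxa9 (1.62) and Hoxc5 (1.51). That is 15% of the Hox probe sets, beside 3.94% of all probe sets and, for 5 of the 38 dim members (13.2%), 5.62% of all dim ones. On each of the other 3 arrays the count was 0 of 40. These arrays are 1 pool each, so a difference between the pools and one between the hybridisations cannot be told apart. The median difference between replicates 1 and 2 over the 40 was 0.18 in DMSO and 0.02 in TCDD on the log2(signal + 16) scale, beside 0.08 and 0.02 over all probe sets.

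Markers of cells that can carry Hox transcripts were followed in the same arrays. Of 9 measured blood progenitor markers 3 had a mean of at least 50, among them Lmo2 at 63.3 and Gata2 at 52.5, while Tal1 stood at 2.28, and their summed signal was 395.1 and 324.4 in DMSO and 379.9 and 333.3 in TCDD. For nerve, glia and hindbrain the sum over 7 genes was 690.8 and 695.8 in DMSO and 711.9 and 614.1 in TCDD. Most of this sum came from Tubb3, a neuronal tubulin, with 485.4 and 532.6 in DMSO and 536.2 and 436.9 in TCDD. The Tubb3 probe set carries the letter f, so its mean of 498 need not be neuronal. Among the other genes of the list all but Egr2 read highest on DMSO replicate 1, which the sum does not show. Phox2a and Isl1, genes of hindbrain motor neurons, were at 5.35 and 1.5. Sums for 8 endothelial genes ranged from 687.5 to 734.3 in DMSO and from 670.2 to 685.4 in TCDD, and sums for 5 red cell genes from 4188.3 to 4653.8 and from 3430.7 to 4495.3. For 10 skeletal muscle genes the sums were 780.1 and 326.7 in DMSO and 1026.5 and 360.3 in TCDD, high in replicate 1 of both groups. For 10 macrophage genes they were 844.3 and 737.3 in DMSO and 1021.5 and 992.2 in TCDD. Cartilage genes were dim, 0 of 5 with a mean of at least 50. Such sums are carried by their brightest genes, and single markers did read high on DMSO replicate 1 alone. The endothelial gene Pecam1 read 107 and 49.8 in DMSO and 42.5 and 43.3 in TCDD, the cartilage collagen gene Col2a1 38.3 and 10.3 in DMSO and 11 and 18.9 in TCDD, and the muscle factor gene Myf6 31 and 13 in DMSO and 13.2 and 3.6 in TCDD. These 3 were the markers at least 1.5 times the next array in signal + 16, as were 10 of the 48 remote organ genes. Of the 9 blood progenitor markers 7 were highest on DMSO replicate 1, Gata1 with 45.3 against 16.6, 24 and 25.7 on the other arrays. Of the 7 nerve, glia and hindbrain genes 5 were, and none in either list was so by 1.5 times. The share was 43.5% over all probe sets and 56.7% over those with a mean under 50. Counts for the other lists were 3 of 5 for cartilage, 4 of 8 for endothelium, 3 of 10 for muscle, 2 of 10 for macrophages and 0 of 5 for red cells. No marker was at 0 on its mean, but neither were the bacterial and yeast controls, with means from 1.27 to 13.7. Some markers, such as Isl1 and Tal1, lay within that range. The part of the marked cell types in the Hox readings was not tested.

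No Hox probe set passed the test between TCDD and DMSO. In limma, fitted on log2(signal + 16) over all 12422 non-control probe sets, 0 of 40 had a Benjamini-Hochberg adjusted p under 0.05, where 0.0161% of all probe sets did (2 of 12422). Adjusted p-values of the members lay between 0.979 and 0.999. At an unadjusted p under 0.05 there were 2 of 40 (5%), both lower in TCDD, beside 3.64% of all in either direction and 2.54% of all lower in TCDD, namely Hoxb8 at its dim probe set 96417_s_at and Hoxa3, both at readings of 7 or less. That count was 11 without DMSO replicate 2, beside 13.7% of all, 5 without DMSO replicate 1, beside 3.89%, and 0 without either TCDD array, after quantile normalisation or with an offset of 64. With 2 arrays per group the test is weak, and a p that misses the threshold does not show that levels were equal.

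Most differences were downward, as they were for dim probe sets in general. The log2 difference, TCDD minus DMSO, was below 0 in 30 of 40 (75%), beside 60.7% of all probe sets and 71.1% of those with a mean under 50. Its median was -0.14, beside -0.05 over all and -0.1 over the dim ones. The groups did not overlap in 18 of 40, beside 31.6% of all. Both TCDD arrays lay below both DMSO arrays in 16 of 40 (40%), beside 20.8% of all and 26.2% of the dim ones. Both lay above in 2 of 40 (5%), Hoxc4 and Hoxd12, beside 10.8% of all and 6.88% of the dim ones. After quantile normalisation the counts were 9 lower and 4 higher, beside 15.4% and 14.9% of all. Without DMSO replicate 1 they were 17 lower and 13 higher, beside 32.5% and 29.1% of all, and the median was -0.03. In the list of remote organ genes 39 of 48 differences were below 0, with a median of -0.18, while in the list of homeobox genes of the first arch 8 of 19 were, with a median of 0.04. None of either list passed limma's adjusted p, and 3 and 0 had an unadjusted p under 0.05.

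On the log2(signal + 16) scale Hoxb6, Hoxc8 and Hoxb5 had the largest differences among the members. This order depended on the setting: with an offset of 1 the dim Hoxb8 probe set 96417_s_at, at -1.21, was past Hoxb6 at -1.085, and after quantile normalisation Hoxb8 at 96418_r_at, at -0.465, was past Hoxb5 at -0.414. Hoxb6 had a mean of 52.8 ± 28 (SD, n = 2) in DMSO and 22.6 ± 1.27 (SD, n = 2) in TCDD, which is -0.77 ± 0.34 (SE) on the log2 scale. Hoxc8 had 39.2 ± 27.3 and 15.5 ± 0.42 (SD, n = 2 each), a log2 difference of -0.72 ± 0.37 (SE). In both the SD in DMSO, from the reading on DMSO replicate 1, was of the size of the difference in means. Hoxb5 had 34.5 ± 4.17 and 18.9 ± 3.32 (SD, n = 2 each), a log2 difference of -0.53 ± 0.26 (SE), with the groups apart by more than the spread within either. Limma's adjusted p was 0.979 for each of the 3. Without DMSO replicate 1 the log2 differences were -0.34 for Hoxb6, -0.19 for Hoxc8 and -0.45 for Hoxb5, where limma's adjusted p was 1 for each.

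The brightest members also read lower in TCDD on average. Hoxa4 at 97747_r_at averaged 146 ± 13.5 (SD, n = 2) in DMSO and 119 ± 3.75 (SD, n = 2) in TCDD, which is -0.26 ± 0.19 (SE) on the log2 scale, and its groups did not overlap. Without DMSO replicate 1 this difference was -0.18. Hoxb8 at 96418_r_at had 122 ± 52.4 and 81 ± 11.5 (SD, n = 2 each), a log2 difference of -0.46 ± 0.29 (SE), which was -0.06 without DMSO replicate 1. Hoxd8 at 160460_at differed by -0.49 ± 0.31 (SE), or by -0.21 without DMSO replicate 1. Among differences above 0 the largest were 0.17 for Hoxa11os at 161670_f_at and for Hoxa4 at 97745_at, where the arrays of the groups overlapped.

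**Figure D5:**
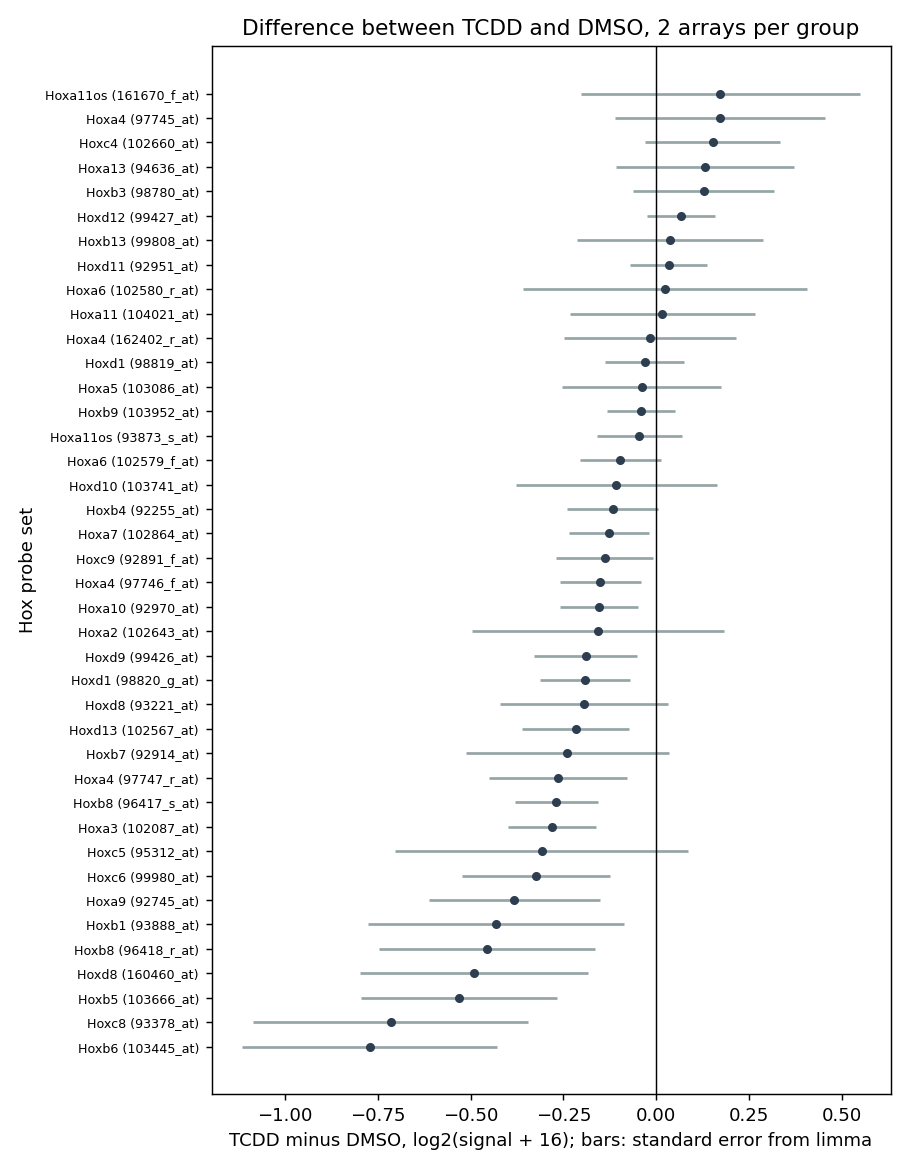
Log2 difference between TCDD and DMSO on the log2(signal + 16) scale for the 40 Hox probe sets, ordered by size, with limma standard errors (2 arrays per group). Points run from -0.77 for Hoxb6 to 0.17 for Hoxa11os, and 30 of the 40 lie below 0, none past an adjusted p of 0.05.

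Against each DMSO array alone the picture differed. Set against DMSO replicate 1, 33 and 34 of the 40 were lower on TCDD replicates 1 and 2, with medians of -0.25 and -0.24 (62.1% of all probe sets were lower in either pair). Set against DMSO replicate 2, 20 and 23 of the 40 were lower, with medians of -0.01 and -0.03, beside 50.1% and 52.2% of all. The downward shift of the members was therefore present in the pairs with DMSO replicate 1 and near 0 in those with DMSO replicate 2.

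The TALE homeodomain genes include the Pbx, Meis and Pknox genes, whose products bind DNA together with Hox proteins. Of 8 measured TALE genes 5 had a mean of at least 50, namely Tgif1 at 398, Pbx3 at 269, Tgif2 at 218, Pknox1 at 98.8 and Pbx2 at 65.9. The Tgif genes encode TALE repressors, and without them 3 of 6 had such a mean. The Meis genes, which encode partners of Hox and Pbx proteins, were dim, with Meis3 at 28.5, Meis1 at 19.3 and Meis2 at 13.6. In this list 0 of 8 passed limma's adjusted p and 0 an unadjusted p of 0.05, with 5 higher and 3 lower in TCDD. Pknox1 had the smallest p of the list, at -0.39 ± 0.2 on the log2 scale (SE).

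Transcripts of chromatin regulators of the Hox clusters mostly had means of at least 50. Of 17 measured Polycomb genes, whose products maintain the repression of Hox clusters, 14 had a mean of at least 50, among them Cbx6 at 424, Jarid2 at 298, Ezh2 at 265 and Bmi1 at 244, while Ring1 and Cbx7 were at 14.35 and 1.98. Pcgf2, also called Mel18, was dim at 32.4 and had the smallest p of the list, with a log2 difference of -0.6 ± 0.29 (SE). None of the 17 passed limma's adjusted p or an unadjusted p of 0.05, with 11 higher and 6 lower. All 6 measured genes of the trithorax class and its H3K27 demethylases, which sustain active clusters, had a mean of at least 50, led by Smarca4 at 353, Wdr5 at 205 and Kdm6a at 155. In that list 0 of 6 passed the adjusted p in limma and 1, Ash2l, had an unadjusted p under 0.05, at 0.83 ± 0.27 (SE).

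Genes that act upstream of Hox genes in other regions, by activating them or by setting retinoic acid levels, were mostly dim. Of 13 measured genes 3 had a mean of at least 50: Cyp26a1, which degrades retinoic acid, at 76.6, Egr2, the hindbrain factor Krox20, at 65.3, and Rarg, a retinoic acid receptor, at 58. The Cdx genes, which activate trunk Hox genes, were at 6.58 for Cdx1, 3.95 for Cdx4 and 2.62 for Cdx2. None of the 13 passed limma's adjusted p or an unadjusted p of 0.05, with 5 higher and 8 lower. Genes beside the clusters in the genome were not uniformly dim: Mtx2, next to Hoxd, stood at 241, and Skap2 and Snx10, on the anterior side of Hoxa, at 84.9 and 69.9, whereas the homeobox genes Evx1 and Evx2, at the posterior ends of Hoxa and Hoxd, stood at 6.02 and 7.93. In this list, which also holds Cbx5, Gsx1 and Pdx1, 0 of 8 passed either limma threshold, with 5 higher and 3 lower.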

How the data were processed

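The deposited table holds 1 MAS5 intensity per probe set and array, made by the authors with Affymetrix Microarray Suite 5.0 and scaled to a target of 100, per the labels' protocols. A spreadsheet date fault affects 18515 of its 49952 values (37.1%), which appear as day serials, among them 124 of the 160 values (77.5%) of the Hox probe sets. Each was restored as day.month, and the 2% trimmed mean was then 100.05 on every array. Symbols came from the platform annotation, updated through Entrez IDs in the GRCm38.p6 gene table, and promoter sequences from RefSeq's table of that build. The 66 control probe sets were kept out of the fit. Limma 3.58.1 in R 4.3.3 (lmFit, eBayes with a variance trend) was fitted on log2(signal + 16) over 12422 probe sets without a filter on low signals, since dim members are included, with Benjamini-Hochberg adjustment. The offset of 16 understates differences of dim probe sets. The procedure was tested on simulated data with independent noise and no array shifted. That test does not cover the shift of DMSO replicate 1 at low signals.

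Members named singly were those with a mean of at least 50 or among the 6 highest, those of genes with several probe sets, and those with groups apart by at least 0.5 (log2); other members named with values were chosen after these were seen. Each listed gene is shown by its brightest probe set. For other lists, up to 4 of the brightest genes and up to 3 with the smallest p were candidates for naming, and not every list names them all. Further genes were chosen after their values were seen. Members, lists and tests were chosen with earlier results of these data known. The number of arrays limits the precision. No label says that replicate numbers pair the samples.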

Additional observations from a re-analysis of the deposited data

How the results depend on the processing

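The count of 0 Hox probe sets past limma's adjusted p of 0.05 was found under all alternatives tried: offsets of 1 and 64, filters at 20 and 50, quantile normalisation, day serials set to 16, the replicate block, eBayes without a trend, and each array left out. The lowest adjusted p of any member over these was 0.314. Over all probe sets the count moved from 2 to 0 with an offset of 64 or without a trend, 4 with either filter, 99 with day serials set to 16, 17 with the replicate block, and 0 to 1 with an array left out. Same-numbered arrays deviated together with a correlation of 0.31 over all probe sets and -0.13 over the Hox ones. With 2 pairs these values cannot decide whether the samples were paired. Under the block 0 Hox probe sets passed limma's adjusted p. At an unadjusted p under 0.05 in limma there were 3 of 40, beside 8.59% of all probe sets.

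The count of Hox probe sets whose groups do not overlap, 18, was 1 and 5 with the filters at 50 and 20. These filters leave 2 and 11 members, and the shares of all probe sets were 29.8% and 29.9%. The count was 5 of 40 with day serials set to 16, which ties dim values, beside 19.1% of all. Leaving an array out is an easier condition. The count was 30 without DMSO replicate 1 and 34 without DMSO replicate 2, beside 61.6% and 74% of all probe sets. Without TCDD replicate 1 it was 27, beside 62.3%, and without TCDD replicate 2 it was 24, beside 63.6%. The median log2 difference, -0.14, was further from 0 with an offset of 1 (-0.44) and with filters at 50 and 20 (-0.36 and -0.43), nearer to 0 after quantile normalisation (-0.045) and with an offset of 64 (-0.042), and 0 with day serials set to 16, and ranged from -0.25 to -0.03 with an array left out. The count with a mean of at least 50, here 2, was 9 at a level of 25 and 2 with any array left out. Among Hox probe sets without a letter in their name it was 0, beside 49.7% of all such probe sets on the array. At a level of 25 the count was 4 without DMSO replicate 1 and 10 with each other array left out, a setting added after seeing the data. The median difference between the DMSO replicates was 0.68 with an offset of 1 and 0 with day serials set to 16.

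Signs turned in 6 of 17 named probe sets, none past an adjusted p of 0.05 in limma. Outside the settings that leave out an array, Hoxa4 at 162402_r_at read 0.015 with an offset of 1 and 0.118 after quantile normalisation, Hoxa6 at 102580_r_at -0.016 with an offset of 64 and -0.452 with day serials set to 16, and, after quantile normalisation, Hoxa11os at 93873_s_at 0.051 and Hoxd1 at 98819_at 0.044. With an array left out, log2 differences ranged from -0.264 to 0.234 for Hoxa4 at 162402_r_at, from -0.19 to 0.533 for Hoxa4 at 97745_at, from -0.533 to 0.579 for Hoxa6 at 102580_r_at, from -0.43 to 0.776 for Hoxa11os at 161670_f_at, from -0.108 to 0.018 for Hoxa11os at 93873_s_at, and from -0.101 to 0.04 for Hoxd1 at 98819_at. The causes were not tested.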
